A study of Mus musculus with 4 samples.

Results

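The cytosolic ribosomal protein genes were examined in cultured mouse astrocytes labelled WT or Tet1 KO. A gene was counted as a member when the authors' table listed it as protein-coding and its symbol was Rpl or Rps with a number and at most 1 of the suffix letters a, l and x (x for Rps only), Rplp with a number from 0 to 2, or Rpsa. The rule found 79 of the 25393 listed genes, 31 of the small (40S) subunit and 48 of the large (60S) subunit. It used names alone and no measured value. Genes of ribosomal proteins whose symbols fall outside this pattern, such as Rps3a1, Fau and Rack1, are given apart from the members.

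Primary astrocytes from cortex and hippocampus of C57BL/6 mice at postnatal day 1 were measured by RNA-seq, with 2 libraries labelled wild type (WT) and 2 labelled tet1-/- (Tet1 KO). Both groups were untreated. Each isolation combined 2 pups, and the cells were grown for about 7 days, shaken and kept for a further 24 h before RNA was taken. The study describes the knockout as constitutive, so every cell of these cultures, and not the astrocytes alone, would carry it. The values are read counts that were scaled between libraries but not by gene length, called normalized counts here, and levels between genes are compared only as FPKM computed from the recovered reads and the listed gene lengths. The libraries held 18749610 to 22673555 reads on genes. The study calls its RNA-seq samples biological repeats and mentions more of them per genotype than are analysed here, while the labels do not say whether the libraries came from separate cultures, so the p-values measure the spread between these libraries. Tet1 itself had 266 and 121 normalized counts in WT against 173 and 463 in the KO-labelled libraries. The groups overlapped, and the gene-level values pool all transcripts, whether or not they hold the deleted part. These libraries are therefore called KO-labelled, and each direction below rests on that label.

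The ribosome reads mRNA on its small subunit and joins amino acids on its large subunit. Most of its proteins are present in 1 copy per ribosome and their genes are active in every cell, with mRNAs that begin with a short run of pyrimidines, the TOP motif, through which mTOR signalling sets their translation. Ribosomal protein mRNAs are also the classic source of processed pseudogenes, intronless copies that were written back into the genome, so reads from the parent gene and its copies can be hard to assign.

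As a group the ribosomal protein genes took a larger share of the reads in the KO-labelled libraries. The 79 genes held 1.61% and 1.65% of the reads on genes in WT, and the KO-labelled libraries had 2.05% and 2.90%. Both KO-labelled libraries lay above both WT libraries, and Tet1 KO 2 lay further from Tet1 KO 1 than the WT libraries lay from each other. The means were 1.63% ± 0.03 in WT and 2.48% ± 0.60 in the KO-labelled libraries (SD, n = 2 each), a ratio of 1.52. In bulk RNA, more or fewer cells of a type cannot be told apart from more or less RNA per cell. A two-sided exact permutation test gave p = 0.333, the smallest p that 2 libraries against 2 allow. The difference of 0.85 percentage points was 0.42 without Tet1 KO 2 and 1.27 without Tet1 KO 1. The 40S genes went from a mean of 0.67% to 1.09%, a ratio of 1.61, and the 60S genes from 0.96% to 1.39%, a ratio of 1.46. Mitochondrially encoded genes, whose mRNAs are read by separate mitochondrial ribosomes, held 1.95% and 1.17% of the reads in WT against 1.95% and 2.08% in the KO-labelled libraries.

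**Figure D1:**
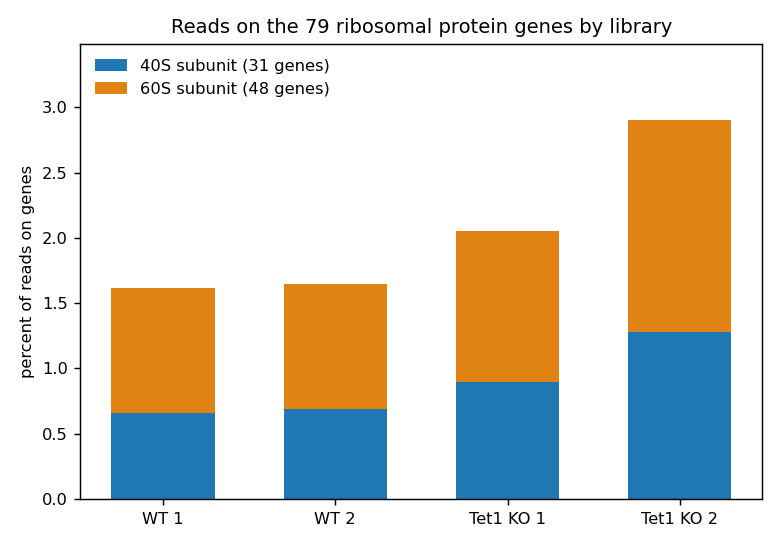
Share of the reads on genes that fell on the 79 ribosomal protein genes, in percent, as 1 stacked bar per library starting at 0, with the 40S subunit (blue, 31 genes) below the 60S subunit (orange, 48 genes). The WT bars reach 1.61 and 1.65 and the bars labelled KO 2.05 and 2.90.

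Gene by gene, the members were higher by a similar amount. Of the 77 members with a mean of at least 1 normalized count, 70 had a positive log2 fold change and 7 a negative one, on the log2(normalized count + 1) scale, which understates the change of low genes. Their median was 0.64, with an interquartile range from 0.46 to 0.73, while the median of all 22094 genes tested was -0.07. Both KO-labelled libraries lay above both WT libraries in 67 members and below both in 4. Over all genes tested, these shares were 22.5% and 25.4%. No member passed an adjusted p of 0.05 in limma with Benjamini-Hochberg adjustment, and 0% of all genes did; the lowest adjusted p of a member was 0.0777. At an unadjusted p under 0.05, 14 members were higher, against 4.54% of all genes, and 2 were lower, against 9.18%. Over all genes, 1004 of 3032 such genes were the higher ones, and with quantile normalization 1368 of 2903 were, with 7 members among them. The count of 14 varied with the library left out. It was 0 without WT 1 (against 1.24% of all genes), 0 without WT 2 (2.19%), 6 without Tet1 KO 2 (4.1%) and 44 without Tet1 KO 1 (8.24%). The median was 0.42 without Tet1 KO 2 and 0.82 without Tet1 KO 1.

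The 2 KO-labelled libraries differed from each other in the same genes. Tet1 KO 2 exceeded Tet1 KO 1 in 71 of the 77 members, with a median log2 difference of 0.41, and WT 2 exceeded WT 1 in 57 members, with a median of 0.08. Among the 4692 other protein-coding genes with a mean of at least 1000, Tet1 KO 2 lay 0.09 below Tet1 KO 1 at the median (-0.09 on the log2 scale).

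**Figure D2:**
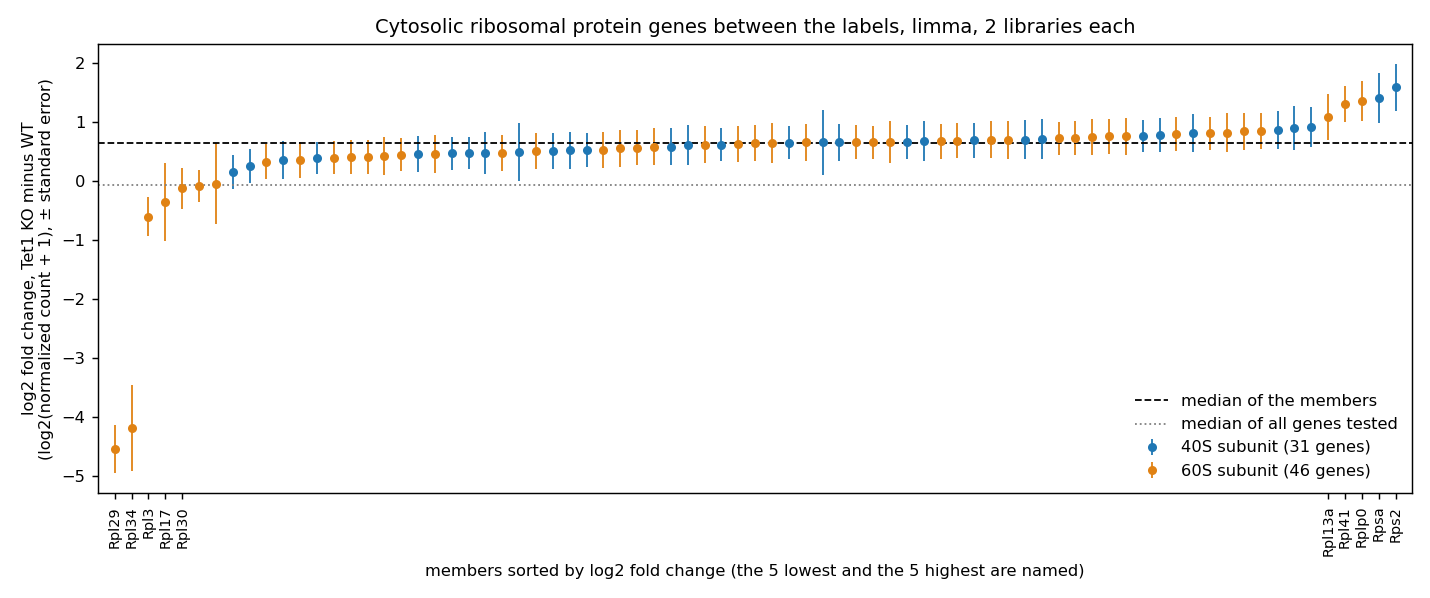
Log2 fold change (Tet1 KO minus WT, limma on log2(normalized count + 1)) of the 77 members tested, sorted from lowest to highest, with standard errors and with 40S genes in blue and 60S genes in orange, and with names under the 5 lowest and the 5 highest. Most genes lie near the members' median of 0.64 (dashed line), above the median of all genes (-0.07, dotted line), while Rpl29 and Rpl34 lie below -4.

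The 2 subunits had similar medians. All 31 of the 40S genes had positive log2 fold changes, from 0.14 to 1.58, with an SD over genes of 0.29 and a median of 0.65. In 28 of them the groups did not overlap; in the other 3, Rps12, Rps23 and Rps27a, they did. The 46 tested 60S genes had a median of 0.63 and an SD of 1.08, with 39 positive and 7 negative values. This wider spread was not seen once the reads of annotated copies, described further on, were added, which gave an SD of 0.29 for the 40S and 0.25 for the 60S genes.

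The largest differences upward were in Rps2, Rpsa, Rplp0 and Rpl41. Rps2, a protein at the mRNA entry channel of the 40S subunit (chr17:24718116-24721929 on GRCm38, plus strand), had 6909 and 9817 normalized counts in WT against 19622 and 30976 in the KO-labelled libraries. The groups were far apart, with the lower library labelled KO at a level above the higher WT library, and the log2 fold change was 1.58 (SE 0.39, adjusted p = 0.227 in limma with Benjamini-Hochberg adjustment). Rpsa, which is needed for 40S maturation and is also known as the laminin receptor, had 5312 and 6522 in WT, and the KO-labelled libraries had 11018 and 21867. Its log2 fold change was 1.40 (SE 0.42, adjusted p = 0.284 in limma). Tet1 KO 2 held the higher value of both genes. Rplp0, the base of the 60S stalk (chr5:115559467-115563727, plus strand), had 8893 and 8300 in WT against 18385 and 26151 in the KO-labelled libraries, a log2 fold change of 1.35 (SE 0.34, adjusted p = 0.228 in limma). Rpl41, the shortest ribosomal protein, had 5672 and 5511 in WT against 11897 and 15947 in the KO-labelled libraries, a log2 fold change of 1.30 (SE 0.31, adjusted p = 0.219 in limma). None of the 4 genes had overlapping groups. DESeq2 on the recovered reads gave adjusted p-values of 0.0233 for Rps2, 0.0351 for Rplp0, 0.0404 for Rpl41 and 0.0689 for Rpsa; it called 3 members higher, against 1.69% of all genes it tested. Without these 4 genes, the other 75 held 1.49% of the reads in WT and 2.10% in the KO-labelled libraries, a ratio of 1.41. The 4 together went from 0.14% to 0.37%, a ratio of 2.67. They were picked for their large differences in these same libraries, so a higher ratio for the 4 than for the rest follows from that choice.

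The fifth of the members with the largest log2 fold changes was Rpl13a, a 60S protein that can leave the ribosome to silence inflammatory mRNAs. It had 222 and 220 normalized counts in WT, and the KO-labelled libraries had 365 and 601, a log2 fold change of 1.08 (SE 0.39). A further annotated gene, Gm45713, lies over Rpl13a on the same strand, and the 2 may compete for reads, which makes its count uncertain. The other 65 members with a positive value lay between 0 and 1. Rps6, the 40S protein that S6 kinases phosphorylate, lay below the members' median, with 6012 and 6042 in WT against 7790 and 9604 in the KO-labelled libraries and a log2 fold change of 0.52 (95% interval -0.22 to 1.26).

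**Figure D3:**
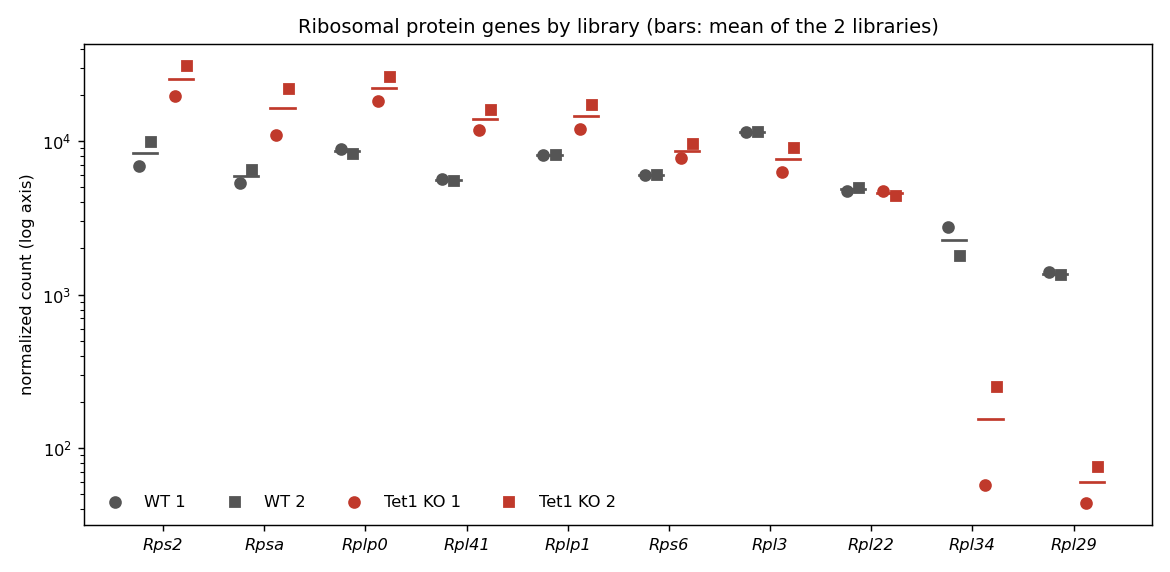
Normalized counts of 10 ribosomal protein genes in each library on a log axis, with WT in grey, the KO-labelled libraries in red, circles for replicate 1, squares for replicate 2 and a line at each mean. Rps2, Rpsa, Rplp0, Rpl41, Rplp1 and Rps6 are higher in both KO-labelled libraries, Rpl34 and Rpl29 are far lower, and Rpl22 is nearly level.

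Rpl29 and Rpl34, both 60S proteins, went far in the other direction. Rpl29 (chr9:106429454-106431568, plus strand) had 1398 and 1339 normalized counts in WT against 43.9 and 75.7 in the KO-labelled libraries, a log2 fold change of -4.54 (SE 0.41, adjusted p = 0.0777 in limma). Rpl34 (chr3:130726831-130730398, minus strand) had 2763 and 1793 in WT, and the KO-labelled libraries had 57.8 and 251, a log2 fold change of -4.19 (SE 0.73, adjusted p = 0.15 in limma). The groups were widely separated in both genes. DESeq2 called these 2 members lower, with adjusted p-values of 7.9e-16 for Rpl29 and 9.5e-06 for Rpl34, against 4.8% of all genes. Both genes have annotated copies elsewhere in the genome, and the most abundant of these had values in the opposite direction. The copy Rpl34-ps1, a processed pseudogene on chromosome 6, had 385 and 2151 in WT against 4562 and 5711 in the KO-labelled libraries. For Rpl29, the pseudogene Gm13841 on chromosome 5 had 250 and 288 in WT against 1162 and 1559 in the KO-labelled libraries, and Gm8210 on chromosome 1 had 4.27 and 5.52 in WT and 323 and 592. A further copy, Gm10709 on chromosome 9, went down with Rpl29, from 118 and 88.3 to 3.21 and 0.90.

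The sequences show how close these copies are. Each pair below is 60 bases of the member's coding sequence and the same stretch of its copy, from GENCODE M21 on GRCm38, in lower case with the differing base in capitals, and each was chosen because it holds the first base at which the pair differs. Positions count from 1 at the first coding base, with the member's base written first. Over 351 coding bases, Rpl34 and Rpl34-ps1 differ at 2 (T132C and C318G), an identity of 99.4%. The stretch covers positions 102 to 161 and lies in the copy at chr6:71124711-71124770 on the plus strand.
Rpl34: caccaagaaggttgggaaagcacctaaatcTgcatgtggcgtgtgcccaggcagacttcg
Rpl34-ps1: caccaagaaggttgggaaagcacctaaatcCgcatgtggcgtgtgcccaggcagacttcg

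Rpl29 and Gm13841 differ at 3 of 480 coding bases (C72A, C300T and T423C), and Gm8210 differs from Rpl29 at the same 3. The stretch covers positions 42 to 101 and lies at chr5:115802059-115802118 on the minus strand in Gm13841 and at chr1:43189197-43189256 on the plus strand in Gm8210, where it reads the same.
Rpl29: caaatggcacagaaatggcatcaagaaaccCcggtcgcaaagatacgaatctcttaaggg
Gm13841: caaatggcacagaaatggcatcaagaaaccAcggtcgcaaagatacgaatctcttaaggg

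Rpl3, which reaches towards the peptidyl transferase centre, and Rpl30 also have copies with higher values in the KO-labelled libraries. Rpl3 had 11396 and 11553 normalized counts in WT, and the KO-labelled libraries had 6301 and 9005, a log2 fold change of -0.61 (95% interval -1.43 to 0.21). Its copy Rpl3-ps1 on X had 929 and 805 in WT against 6376 and 4522 in the KO-labelled libraries. Rpl30 had 2304 and 3727 in WT against 2496 and 2885 in the KO-labelled libraries, with overlapping groups, while its copy Gm12191 on chromosome 11 had 1086 and 462 in WT and 2041 and 3258. The coding sequences of Rpl3 and Rpl3-ps1 differ at 2 of 1209 bases (C57A and T786C), and those of Rpl30 and Gm12191 at 1 of 345 (G96A). The stretches lie at chrX:13202598-13202657 on the plus strand and chr11:49678933-49678992 on the minus strand in the copies.
Rpl3: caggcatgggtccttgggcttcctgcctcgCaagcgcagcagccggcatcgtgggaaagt
Rpl3-ps1: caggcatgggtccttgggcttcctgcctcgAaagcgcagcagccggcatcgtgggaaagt
Rpl30: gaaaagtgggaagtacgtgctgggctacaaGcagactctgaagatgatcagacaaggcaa
Gm12191: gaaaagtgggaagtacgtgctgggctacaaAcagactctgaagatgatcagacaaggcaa

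Adding the copies to their parent removed most of the differences downward. A copy was taken as a listed gene that shares at least 10% of a member's 50-base coding words, a word length set here because the read length is not given in the sources used here. Rpl34 with its 4 listed copies summed to 3265 and 4037 normalized counts in WT, and the KO-labelled libraries had 4740 and 6080, a log2 fold change of 0.56 (SE 0.31). The copies held 15.4% and 55.6% of that sum in WT against 98.8% and 95.9% in the KO-labelled libraries. The sum for Rpl29 and its 17 listed copies was 1815 and 1747 in WT against 1557 and 2272 in the KO-labelled libraries, with overlapping groups and a log2 fold change of 0.08 (SE 0.31). The copies' part of the Rpl29 sum was 23.0% and 23.4% in WT, and the KO-labelled libraries had 97.2% and 96.7%. The sum for Rpl3 and 6 copies was 12378 and 12409 in WT against 12934 and 13665 in the KO-labelled libraries, a log2 fold change of 0.10 (SE 0.30). Rpl30 with 10 copies had 0.45 (SE 0.32), and Rpl17, a protein of the peptide exit tunnel, went from -0.36 alone to 0.48 (SE 0.28) with 12 copies.

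**Figure D4:**
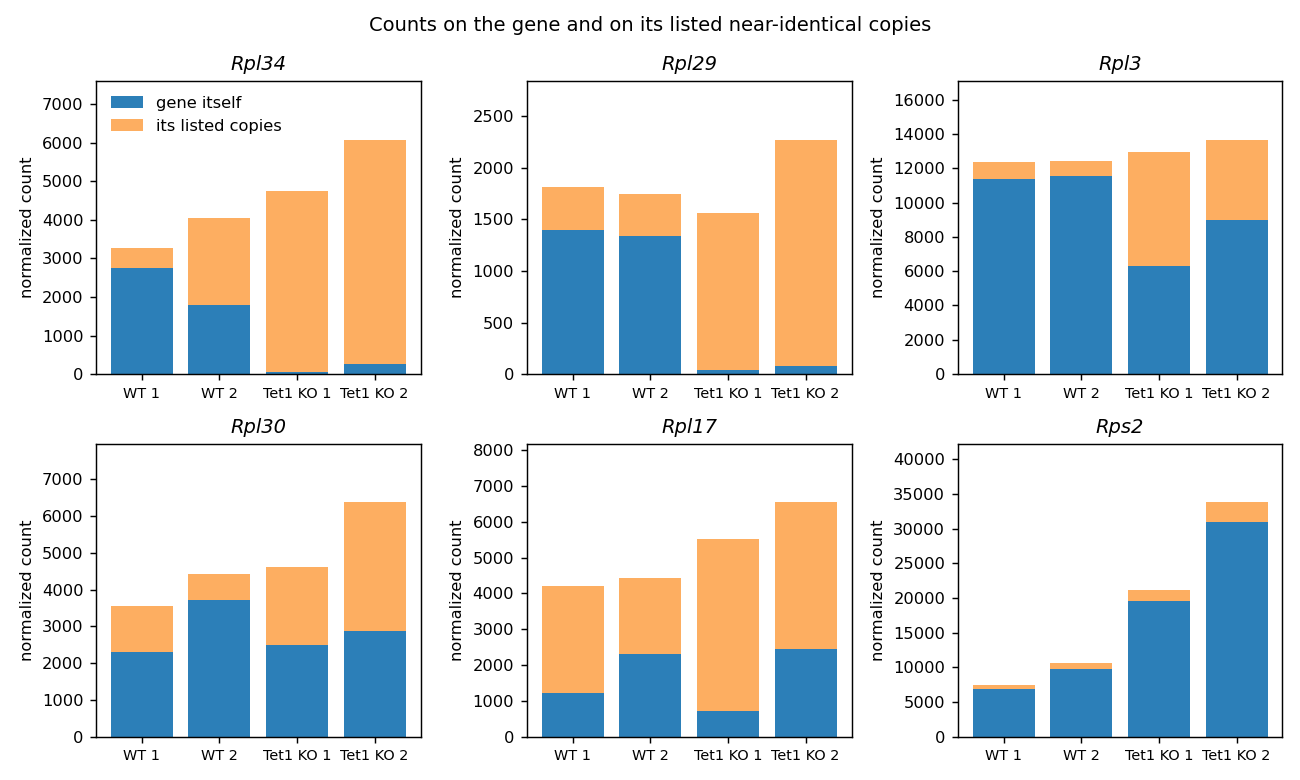
Normalized counts on 6 ribosomal protein genes (blue) and on their listed near-identical copies (orange), stacked from 0 in each library. In Rpl34 and Rpl29 most of the counts lie on the gene in WT 1 and nearly all on the copies in both KO-labelled libraries, while in Rps2 the copies hold between 7.09% and 8.39% in every library.

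Over all members, sums with copies ranged from -0.08 to 1.58 on the log2 scale with a median of 0.64 and an SD of 0.26, against an SD of 0.86 for the genes alone. The groups did not overlap upward in 73 sums and downward in 1, Rpl22, and 13 sums were higher and 0 lower at an unadjusted p under 0.05, against 4.5% and 9.17% of all genes in that fit. Rpl22, a 60S protein whose loss is known to raise its paralogue Rpl22l1, had 4762 and 4947 in WT against 4755 and 4409 in the KO-labelled libraries, and its only listed copy held at most 0.16% of the sum. Its log2 fold change alone was -0.08 (95% interval -0.77 to 0.60). The copies' share of the sum moved by more than 10 percentage points between libraries in 8 members, namely Rpl17, Rpl24, Rpl29, Rpl3, Rpl30, Rpl34, Rplp0 and Rps7. In Rplp0 the library that stood apart was WT 2, where the copies held 24.0% of the sum against 1.11% to 1.77% in the others, mainly on Gm8730 (124, 2279, 176 and 305 normalized counts in WT 1, WT 2, Tet1 KO 1 and Tet1 KO 2). Why the share on copies differed between libraries was not tested.

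**Figure D5:**
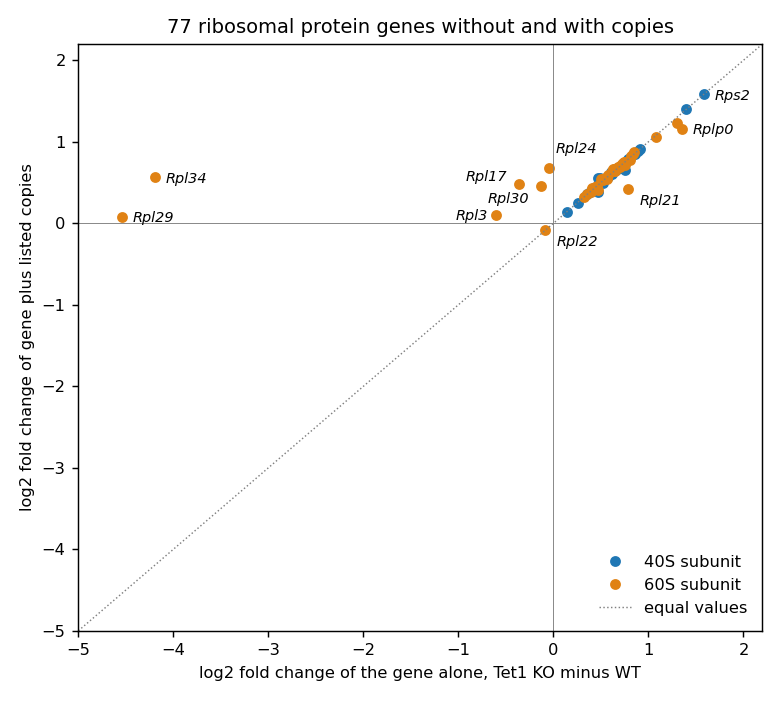
Log2 fold change (Tet1 KO minus WT) of the 77 tested members alone on the horizontal axis and with their listed copies added on the vertical axis, with a dotted line where both are equal. Most genes lie on the line, and Rpl29 and Rpl34 move from below -4 to 0.08 and 0.56.

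Shared sequence was common among the members. Of the 79, 63 shared more than 50% of their 50-base coding words with genes elsewhere, 20 shared all of them and 3 shared none, Rpl3l and Rpl39l among them. The median share was 83.1%. In all, 1105 annotated genes shared a word with a member, 1079 of them pseudogenes, and 384 of them were listed copies. Rps2 alone had 28 listed copies, yet these held between 7.09% and 8.39% of its sum, so its log2 fold change was 1.58 with and without them. Rpsa also stayed at 1.40 with copies added, while Rplp0 went from 1.35 to 1.16 (SE 0.35) and Rpl41 from 1.30 to 1.23 (SE 0.31). Rps10, a protein of the 40S head, was listed at 69.4, 60.7, 74.9 and 112 normalized counts while its copy Rps10-ps2 had 1184, 1377, 1667 and 2133 in WT 1, WT 2, Tet1 KO 1 and Tet1 KO 2, and the sum gave a log2 fold change of 0.55 (SE 0.30). Rps10 also lies under RPS10-NUDT3, a gene of the same strand. Beyond copies, 5 members lie under a further gene of the same strand, 21 have an antisense neighbour over them and 31 hold 65 small RNA genes inside their bounds. Whether the counting used strand is not given in the sources used here.

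By level, these genes sat near the top of the transcriptome. In FPKM averaged over the 4 libraries, 67 of the 79 were among the 1000 highest genes. Rplp1, which with Rplp2 forms the flexible tip of the 60S stalk, was highest at 1100 FPKM, followed by Rpl36 at 504 and Rps15 at 448. At the other end were Rpl3l, the heart and skeletal muscle form of Rpl3, at 0.027 FPKM and Rpl39l, the testis form of Rpl39, at 0.041. Neither reached a mean of 1 normalized count, with Rpl3l seen only in WT 2 (3.68 normalized counts) and Rpl39l in WT 2 (1.84) and Tet1 KO 1 (1.07), around or under the floor of 3 reads. The parent genes Rpl3 and Rpl39 were at 146 and 77.8 FPKM. Rpl24 was also low, at 0.70 FPKM and 10.7 to 18.9 normalized counts, and lies under the same-strand gene Gm28037. Rps27l, a paralogue of Rps27 that p53 induces, was at 153 FPKM beside 152 for Rps27. Rps27l had 1453 and 2146 in WT against 2596 and 4142 in the KO-labelled libraries, a log2 fold change of 0.89 (SE 0.38), and Rps27 had 0.47 (SE 0.27).

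Members were also read by their place on the ribosome. The 4 stalk proteins, which recruit the translational GTPases, had log2 fold changes from 0.56 in Rplp2 to 1.35 in Rplp0, with no overlap between the groups in any of the 4. Rplp1 had 8162 and 8170 normalized counts in WT against 11972 and 17281 in the KO-labelled libraries, a log2 fold change of 0.82 (SE 0.33). The partners of 5S RNA, Rpl5 and Rpl11, which also bind Mdm2 when ribosome assembly stalls, had 0.39 (SE 0.28) and 0.65 (SE 0.28). The 6 proteins of the peptide exit tunnel ranged from -0.36 in Rpl17 to 0.85 in Rpl35, with 5 above 0. Of the 3 that reach towards the peptidyl transferase centre, Rpl8 had 0.70 and Rpl10 had 0.46, and Rpl3 was lower as given above. The 8 proteins of the decoding centre and mRNA channel had values from 0.14 in Rps23 to 1.58 in Rps2, and 7 had no overlap between groups. Among all 77 tested members 67 did not overlap upward, and among all genes 22.5%. The counts by place therefore do not set a place apart from the other members.

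The 4 members on X, where genes can differ between females and males, were Rpl10, Rpl36a, Rpl39 and Rps4x. Their log2 fold changes were 0.46, 0.52, 0.73 and 0.45. Over all tested members the median was 0.64, with an interquartile range from 0.46 to 0.73. Xist, the RNA that silences 1 X in female cells, had 8.54 and 0.92 normalized counts in WT, and the KO-labelled libraries had 2896 and 13367. The labels do not give the sex of the pups, and the sex mix of the cultures and the genotype label cannot be told apart here.

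Promoter sequences from RefSeq on GRCm38.p6 were matched for 59 of the 79 members. A run of C followed by at least 4 bases of C or T, starting within 5 bases of the start site on the coding strand, was found in 28 of the 59 (47.5%), against 21.2% of the 27025 genes in that table. The ETS-type letters CCGGAAG, on either strand within the 250 bases before and 50 after the start, were found in 42.4% of members and 9.93% of all genes. For the YY1-type letters AAGATGG the shares were 15.3% and 7.28%, and TATAAA, searched on the coding strand a short way upstream of the start, was in 0 of the 59 and in 2.41% of all genes. A gene counted when any of its promoters in the table held the letters, and the 4 patterns can overlap. The start regions below, from 20 bases before the start to 15 after it, are those of Rps2 (chr17:24720043-24720077, plus strand) and Rpl34 (chr3:130730384-130730418, minus strand), the matched members with the highest and the lowest log2 fold change. The search rests on annotated RefSeq starts, so a missing run does not show that the mRNA lacks a TOP motif. The RefSeq start of Rps2 lies 1947 bases inside the GENCODE gene. Those of Rpsa, Rpl41 and Rplp0, all without a run, lie 77, 137 and 0 bases from the GENCODE start. The capitals mark the pyrimidine run, which both hold, and a match is a description of letters, not of a site in use. Rpl29 was not among those matched.
Rps2: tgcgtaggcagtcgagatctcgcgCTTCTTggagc
Rpl34: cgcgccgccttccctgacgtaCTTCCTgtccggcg

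Ribosomal protein genes that the naming rule does not match went the same way for the most part. Rps3a1, a 40S protein, had 7215 and 5948 normalized counts in WT against 9856 and 11056 in the KO-labelled libraries, a log2 fold change of 0.67 (SE 0.30). Rack1, a scaffold on the 40S head, had 4651 and 4895 in WT against 7106 and 9959 in the KO-labelled libraries, a log2 fold change of 0.82 (SE 0.31, unadjusted p = 0.0446 and adjusted p = 0.358 in limma). Both genes had no overlap between the groups. Fau, which encodes a ubiquitin-like fusion of a ribosomal protein, had a log2 fold change of 0.34, and Rpl22l1 had 0.47. Rps3a2, an annotated pseudogene, was lower instead, with 335 and 1167 in WT, and the KO-labelled libraries had 92.0 and 107 (log2 fold change -2.64, SE 0.65, unadjusted p = 0.00815 and adjusted p = 0.225 in limma). Of the 10 listed genes of this kind, 1 was higher and 1 lower at an unadjusted p under 0.05, against 4.54% and 9.18% of all genes.

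The rest of the translation apparatus was measured in the same fit. Other genes with TOP mRNAs, among them Eef1a1, Eef2 and Pabpc1, had a median log2 fold change of 0.56 over 14 genes. Of these 14, 13 did not overlap upward, against 22.5% of all genes, and 0 had an unadjusted p under 0.05 in limma. By edgeR also 0 had one, and DESeq2 called 0 at an adjusted p under 0.05. Ribosome assembly factors and RNA polymerase I subunits had a median of 0.63 over 46 genes, with 45 positive and 28 not overlapping upward. At an unadjusted p under 0.05 the assembly list had 4 higher, namely Fbl, Bop1, Mrto4 and Bysl, and 0 lower. Over all genes these shares were 4.54% and 9.18%. Fbl, the methyltransferase of the box C/D snoRNPs, had 861 and 1038 in WT against 1461 and 3101 in the KO-labelled libraries, a log2 fold change of 1.17 (SE 0.43, unadjusted p = 0.0398 in limma). Tet1 KO 2 exceeded Tet1 KO 1 in 40 of the 46 assembly genes, by a median of 0.86 on the log2 scale. This median was 0.41 for the members, 0.93 for the p53 targets and 0.94 for the 8 markers of dividing cells given below. It was -0.02 for the 14 other TOP genes, of which 7 were higher in Tet1 KO 2. The proteins of the mitochondrial ribosome, 77 genes, had a median of 0.34 with 76 positive, 49 without overlap upward and 5 higher at an unadjusted p under 0.05. The lists of genes that control ribosome production or read it out had smaller median log2 fold changes. The 13 growth regulators of the mTOR and Myc pathways had a median of 0.06 and ranged from -0.43 to 0.62, with 8 positive and 5 negative. Mtor at -0.15 and Myc at -0.16 were among the negative ones. Tet1 KO 2 lay above Tet1 KO 1 in 10 of the 13, by a median of 0.44. The 10 p53 target genes had a median of 0.29, but the KO-labelled libraries lay on either side of WT, with a summed level of 417 and 428 FPKM in WT against 272 and 665, and 9 of the 10 were above Tet1 KO 1 in Tet1 KO 2. Neither list had a member at an unadjusted p under 0.05 in limma or edgeR, nor one at an adjusted p under 0.05 in DESeq2.

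Among other protein-coding genes, a high level and a short listed gene length went with higher values as well. The median log2 fold change of the 4692 other protein-coding genes with a mean of at least 1000 was 0.15. For the 385 of these with a gene length under 2000 bases it was 0.34, with 175 not overlapping upward, against 22.5% of all genes. The 73 members at this level had a median of 0.65, with 65 not overlapping upward. These members were not chosen by length, and their listed lengths ran from 383 bases in Rpl36 to 6270 in Rps15a. These are descriptions, and how far level and length account for the difference was not tested.

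Markers of other cell states and types moved between the labels too. Dividing cells were marked by 8 genes, including Plk1, Cdk1, Bub1 and Mki67. All 8 were higher at an unadjusted p under 0.05 in limma, where 4.54% of all genes were higher and 9.18% lower. By edgeR 5 of the 8 had an unadjusted p under 0.05, and DESeq2 called 5 higher at an adjusted p under 0.05. Their median log2 fold change was 3.54. The summed level was 2.04 and 11.1 FPKM in WT against 29.7 and 54.9 FPKM in the KO-labelled libraries. WT 2 lay above WT 1 in all 8, by a median of 2.54 on the log2 scale. Bub1, Ccnb1 and Aurkb were near the read floor in WT 1, at 3.20, 4.27 and 5.33 normalized counts. Of 8 microglia markers, 7, led by C1qb, Aif1, C1qa and Cx3cr1, were lower at an unadjusted p under 0.05, with a summed level of 27.3 and 54.9 FPKM in WT, and the KO-labelled libraries had 3.90 and 1.80 FPKM, and P2ry12 was at 0 in Tet1 KO 1. The 8 astrocyte markers summed to 1344 and 1336 FPKM in WT against 2281 and 356 FPKM in the KO-labelled libraries. Much of this sum was Gfap, with 687 and 765 FPKM in WT, 1871 in Tet1 KO 1 and 117 in Tet1 KO 2. The median log2 fold change of the 8 was -0.78, with 6 negative and 2 positive. The groups did not overlap downward in 5 and upward in 1, against 25.4% and 22.5% of all genes. At an unadjusted p under 0.05, 2 of 8 were lower (Slc1a2 and Sox9). Gfap, Slc1a3 and Aldh1l1 were above 1000 normalized counts in every library. Of 6 neuron markers, Tubb3 and Dcx were higher at an unadjusted p under 0.05. Dcx was under the read floor in WT, at 1.07 and 0 normalized counts. In the KO-labelled libraries Dcx was not far above the floor, at 7.49 and 4.51. Neither edgeR nor DESeq2 gave Dcx an adjusted p. The 6 neuron markers summed to 11.96 and 7.69 FPKM in WT against 11.1 and 17.2 FPKM in the KO-labelled libraries. Snap25 was at 0 in both WT libraries. Vascular markers had 2 of 5 lower (Dcn and Rgs5), with sums of 20.4 and 25.6 FPKM in WT, and the KO-labelled libraries had 20.7 and 13.0 FPKM, and 0 of 6 oligodendrocyte markers passed in limma, edgeR or DESeq2, with sums of 29.8 and 47.9 FPKM in WT against 50.2 and 68.6 FPKM in the KO-labelled libraries. The part of dividing cells and of microglia in the ribosomal protein values was not tested.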

How the data were processed

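Paired-end reads were filtered by the authors and mapped to the mm10 assembly, per their methods and the submitters' processing notes; the aligner, the counter and the annotation release are not given in the sources used here. What the authors deposited is a signal value for each gene in each library, named FPKM, but 100% of the values were whole multiples of 1 read (within 0.1 read) and were not scaled by gene length, so they are counts divided by size factors (0.937, 1.09, 0.934 and 1.11). The planned test assumed FPKM and was kept on these values. The authors' genotype means, log2 fold changes, p-values and adjusted p-values were not used.

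limma 3.58.1 in R 4.3.3 was run on log2(value + 1), with a mean minimum of 1 that 22094 genes passed, a variance trend and Benjamini-Hochberg adjustment over all of them. The recovered reads were tested with edgeR 4.0.16 and DESeq2 1.42.0. The calls of limma, edgeR and DESeq2 were also tried on simulated data, and the other steps were not. The simulated spread between libraries was smaller than the spread that edgeR estimated here. Tables, alignments and plots used Python 3.11.15 with Biopython 1.88 and matplotlib 3.10.9. A floor of 3 reads was 2.70 to 3.21 normalized counts, and it covers counting error only. Identifiers of all 79 members were found in GENCODE M21 on GRCm38, 77 with the same start and end.

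The members and all gene lists were chosen with earlier results of these data known. Named genes were the 5 largest and 5 smallest log2 fold changes, the 3 highest and 3 lowest levels, members ending in l with their parents, members on X, examples of each role, and list members at an unadjusted p under 0.05, of which up to 4 per list are named; Rpl22l1, the mTOR and Myc genes, Eef1a1, Eef2, Pabpc1 and the copies were named after their values were seen. Settings tried were other pseudocounts, filters, scalings, tools, a replicate block and leaving out each library. Sums with copies were added after seeing the data. The paper's 5hmC data and other assays were not analysed here.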

Additional observations from a re-analysis of the deposited data

How the results depend on the processing

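The result that ribosomal protein genes were higher kept its direction under every setting tried, with a median log2 fold change from 0.42 to 0.82 when each library was left out in turn, and the same held for the share of reads, whose difference then ranged from 0.421 to 1.274 percentage points. The number of members higher at an unadjusted p under 0.05, 14 as reported, was less stable. It was 9 with scaling to equal sums (against 3.91% of all genes), 7 with quantile normalization (6.19%), 4 without the variance trend (3.77%) and 6 with DESeq2 (3.94%), and 0 to 44 with a library left out (1.24% to 8.24%). Members lower at that threshold were 1 to 3 with a library left out and 0 with the copies added. DESeq2 called 1106 genes at an adjusted p under 0.05 where limma called 0 (3032 at an unadjusted p under 0.05) and edgeR 0 (2377). The medians of all genes were -0.07 as reported, -0.11 with equal sums, -0.11 with TMM and 0.06 with quantile normalization.

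The replicate block left 4 members higher, against 3.45% of all genes. The shift away from the group mean correlated little between libraries sharing a number (r = -0.0842 over 22094 genes). With 2 libraries in each group, this r cannot decide whether libraries sharing a number also shared a culture or batch.

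Single genes changed direction as follows. With copies added, the log2 fold change was 0.48 for Rpl17, 0.68 for Rpl24, 0.079 for Rpl29, 0.10 for Rpl3, 0.45 for Rpl30 and 0.56 for Rpl34. Rpl24 was 0.49 with quantile normalization, 0.018 with edgeR and 0.0035 with DESeq2. With a library left out, Rpl17 ranged from -1.25 to 0.53, Rpl24 from -0.44 to 0.33, Rpl30 from -0.47 to 0.22 and Tet1 from -0.051 to 1.36. Causes other than the fewer libraries or added copies were not tested. With 2 libraries in each group, single genes are limited by the spread between libraries.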
